A study of Monascus purpureus with 9 samples.

Results

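The 87 transcripts described here were the most abundant of wild-type mycelium of Monascus purpureus, a filamentous fungus known for its red and yellow pigments. They are the rows named gene_ in the deposited expression table whose mean over the 3 wild-type libraries was at least 1000 FPKM (sequenced fragments relative to the length of the transcript and the size of the library), and they make up 0.976% of the 8918 gene_ rows and 87 of the 9869 rows in all. Of the 951 rows named NewGene_, 0 reached that level. The transcripts were thus selected on their wild-type values, which are given as a description. Levels in the knockout libraries did not enter the threshold, but it was chosen with earlier results of these data known.

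RNA was sequenced from mycelium of a Swd3 knockout (3 libraries), a Set1 knockout (3 libraries) and the wild type, WT (3 libraries), each grown for 2 days in PDB, a potato dextrose broth. The labels give no other allele or treatment, no parental strain name, and no word on whether replicate libraries came from separate cultures or transformants. The spread behind each p-value may thus be technical. A knockout may be 1 clone, so that the lost subunit and the history of the strain cannot be told apart.

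Set1 is the enzyme of COMPASS, a protein complex of fungi and animals that places methyl groups on lysine 4 of histone H3, mostly near the start of transcribed genes. Swd3 is one of its structural subunits, a WD-repeat protein needed for that activity in budding yeast. In growing mycelium of filamentous fungi, the most abundant messenger RNAs commonly encode ribosomal proteins, translation factors, histones, enzymes of central carbon metabolism and small secreted proteins. Which of these the 87 rows encode is not known here, because the table gives a row number only. Of its rows, 0 matched the 9270 entries of the reference gene list, so that no function, sequence or genome position is given for any of them, and the transcripts of Set1 and Swd3 were not analysed here.

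The series as a whole had a summed FPKM per library of 705678 to 729434. The Set1 libraries, at 722396 to 729434, lay above every Swd3 library (708044 to 712844) and every WT library (705678 to 715570). The main fit did not scale these totals to a common value. Sequencing depth is unknown, because the files hold FPKM and no counts. All 87 transcripts passed the filter on low values (at least 1 FPKM in at least 3 of the 9 libraries) that left 9153 rows for testing. Their replicates were close. The median coefficient of variation between replicates was 4.23% in the Swd3 knockout, 3.35% in the Set1 knockout and 3.53% in WT. On the log2(FPKM + 1) scale the median SD was 0.06 in Swd3, 0.05 in Set1 and 0.05 in WT libraries, against 0.11 in Swd3, 0.09 in Set1 and 0.09 in WT libraries over all rows tested.

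Some libraries stood apart at this end of the scale. WT replicate 2 was the highest of the WT libraries for 64 of the 87 transcripts, against 27.7% of all rows tested. Swd3 replicate 1 was the lowest of its group for 57 of the 87, while 60.0% of all rows tested were highest in that library. Set1 replicate 1 was lowest for 53 of the 87 and highest for 51.5% of all rows tested. Their part in the results was not tested beyond leaving each library out.

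In WT the 87 transcripts spanned an 18.4-fold range of mean levels, with a median of 1633 FPKM. Only 6 stood at 10000 FPKM or more, 4 between 5000 and 10000, 22 between 2000 and 5000, and the remaining 55 between 1000 and 2000 FPKM. Just above the threshold lay gene_6595, with a WT mean of 1038 ± 72.9 FPKM, and gene_3073, with 1049 ± 96.3 FPKM (SD, n = 3). Just below it lay gene_4378, at 995 ± 24.0 FPKM, and gene_4076, at 988 ± 38.2 FPKM. In 84 of the 87 each WT library was at or above 1000 FPKM, and the other 3 dipped below it in at least 1 library.

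**Figure D1:**
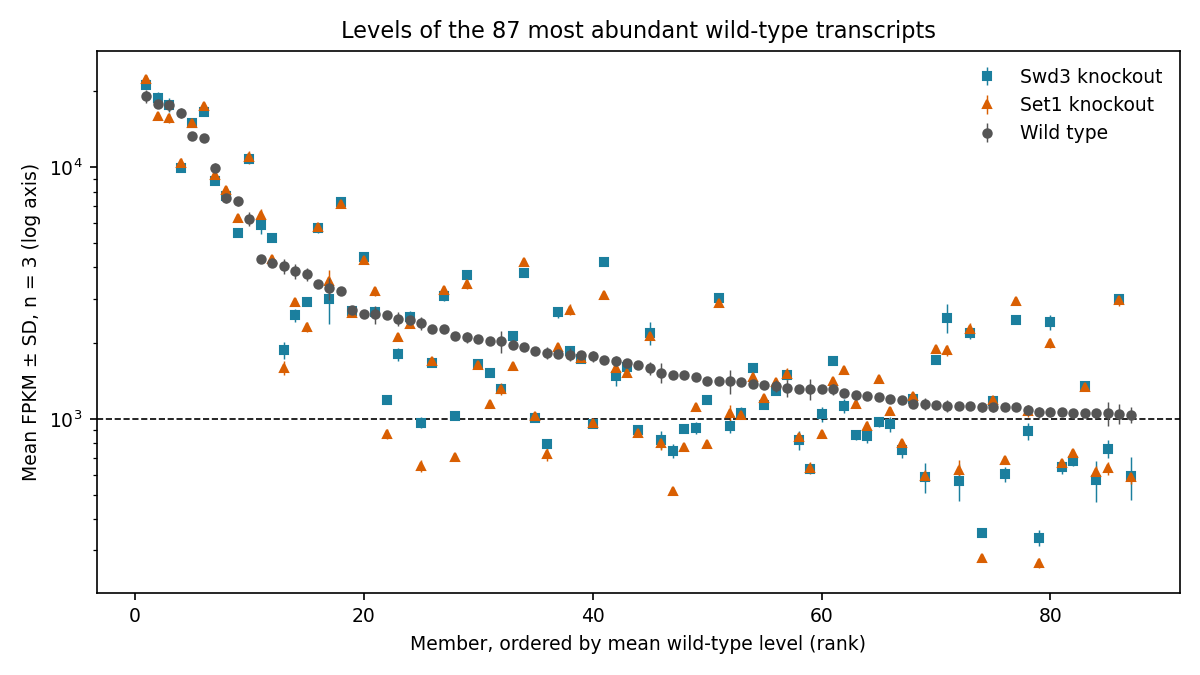
Mean FPKM (log axis) of the 87 transcripts in the Swd3 knockout, the Set1 knockout and the wild type, ordered by wild-type level, with error bars of 1 SD over 3 libraries and a dashed line at 1000 FPKM. Of the 10 leftmost transcripts, 0 differ from the wild type by 2-fold, and 27 of the 87 in the Swd3 and 25 in the Set1 knockout lie below the line.

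The most abundant transcript was the same in all groups. Gene_4643 had 20500, 21410 and 21786 FPKM in Swd3 libraries, 21718, 23274 and 21983 FPKM in Set1 libraries, and 18889, 20384 and 18155 FPKM in WT libraries. Both knockouts lay above every WT library, the Swd3 knockout by a log2 difference of 0.15 (SE 0.05) and the Set1 knockout by 0.22 (SE 0.05). Between the knockouts the difference, Swd3 minus Set1, was -0.07 (SE 0.05) with overlapping values, and it did not pass (limma adjusted p = 0.400).

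Gene_889 and gene_8241 came next in WT, and their WT libraries overlapped, so their order there is not resolved. Gene_889 had 17719, 19243 and 19623 FPKM in Swd3, 15531, 16013 and 16154 FPKM in Set1, and 17624, 18331 and 17599 FPKM in WT libraries. The Set1 libraries were below all others, and the Swd3 libraries overlapped the upper part of the WT range. Its Swd3 minus WT difference was 0.08 (SE 0.04), and 0.12 without Swd3 replicate 1. Its Swd3 minus Set1 difference was 0.25 (SE 0.04) and passed (limma adjusted p = 0.0022), but not after median of ratios scaling, which gave a difference of 0.23 (limma adjusted p = 0.192). Gene_8241 had 16428, 17843 and 18752 FPKM in Swd3, 15020, 16515 and 15566 FPKM in Set1, and 17269, 18622 and 17030 FPKM in WT libraries. Again the Set1 libraries were below the WT ones, but they overlapped the Swd3 libraries, and the knockouts' difference of 0.17 (SE 0.06) did not pass (limma adjusted p = 0.0646). It passed with every library scaled to a common total (0.20, limma adjusted p = 0.0188), with robust variance moderation (adjusted p = 0.0411) and without Swd3 replicate 1 (0.22, limma adjusted p = 0.0160).

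The fourth transcript of WT, gene_7692, was the one of the leading 5 that differed most from WT in both knockouts. It had 9877, 10052 and 9974 FPKM in Swd3 libraries, 10010, 10880 and 10374 FPKM in Set1 libraries and 15938, 17278 and 15995 FPKM in WT libraries. Knockout and WT values did not overlap, and the ratio to WT was 0.608 in Swd3 and 0.635 in Set1. Gene_4078, the fifth, had 14696, 15365 and 15010 FPKM in Swd3, 15254, 14926 and 14855 FPKM in Set1, and 13436, 13267 and 13332 FPKM in WT libraries. Its knockout libraries lay above all WT libraries in a narrow band, at a ratio of 1.13 in each knockout.

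The head of the ranking was largely retained. Of the 10 most abundant rows of WT, 9 were among the 10 most abundant of the Swd3 knockout and 9 among those of the Set1 knockout. In each case the row that left was gene_1353, singled out after its values were seen. It ranked 13 in Swd3, at 5483 ± 202 FPKM, and 12 in Set1, at 6304 ± 192 FPKM, against 9 in WT, at 7309 ± 299 FPKM (SD, n = 3 each). Another row noticed the same way, gene_2080, averaged 10822 ± 455 FPKM in Swd3, 10943 ± 608 FPKM in Set1 and 6233 ± 407 FPKM in WT, and ranked 6 in each knockout, against 10 in WT. Among the 10 transcripts at 5000 FPKM or more in WT, 0 differed from WT by 2-fold in either knockout, and gene_2080 had the widest log2 difference, 0.80 (SE 0.06) in Swd3 and 0.81 (SE 0.06) in Set1.

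The 87 transcripts together took a similar share of each library. They accounted for 37.0%, 38.6% and 39.2% of the summed FPKM in Swd3 libraries, 36.4%, 37.7% and 36.8% in Set1 libraries, and 37.2%, 38.4% and 36.8% in WT libraries. All groups overlapped. Between the knockouts the share differed by 1.29 percentage points, Swd3 minus Set1 (exact two-sided permutation test, p = 0.2, adjusted p = 0.25 over 5 measures tested, where 0.1 is the smallest p that 3 libraries against 3 allow). It was 0.819 points without Swd3 replicate 3, and -0.464 points with the threshold lowered to 500 FPKM. The 5 most abundant of WT took 11.7 ± 0.435% in Swd3, 10.9 ± 0.239% in Set1 and 11.9 ± 0.342% in WT (SD, n = 3 each). Those ranked 6 to 10 in WT took 6.95 ± 0.212% in Swd3, 7.18 ± 0.186% in Set1 and 6.22 ± 0.157% in WT, with each knockout library above each WT library.

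**Figure D2:**
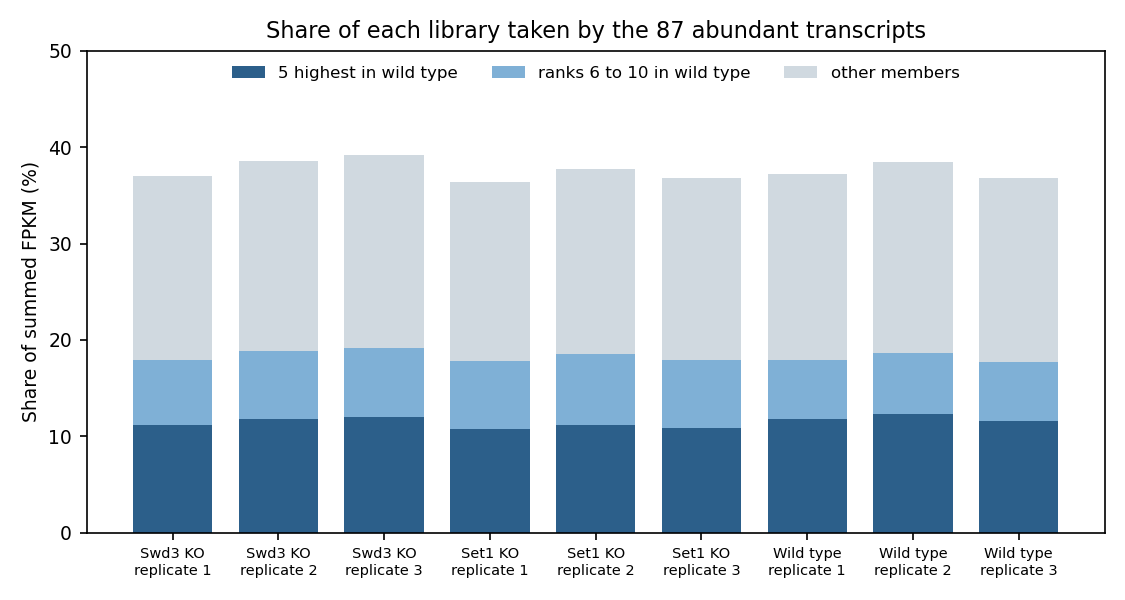
Share of the summed FPKM (%) that the 87 transcripts took in each of the 9 libraries, stacked by wild-type rank. The stacked totals run from 36.4% to 39.2%, and the groups overlap.

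Not all of the 87 kept the level that chose them. In the Swd3 knockout 60 of the 87 averaged 1000 FPKM or more, and 27 fell short of it. In the Set1 knockout 62 kept that level and 25 did not. For comparison, rows were also chosen on 2 WT libraries at a time. Of these, 1, 0 and 3 were below 1000 FPKM in the left-out WT replicate 1, 2 and 3. In the other direction, 21 rows under 1000 FPKM in WT reached that level in Swd3 and 39 in Set1, by group means. A total of 53 were at 1000 FPKM or more in all 9 libraries. The row with the lowest knockout level was the same in each, gene_4714, at rank 325 in Swd3 and 417 in Set1 against 79 in WT. In bulk mycelium, fewer cells of a type and less RNA per cell cannot be told apart.

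Against WT, the 87 transcripts spread to each side of 0, and more lay below than above. In the Swd3 knockout 35 had a positive and 52 a negative log2 difference, with a median of -0.25 and quartiles of -0.68 and 0.27, beside a median of -0.05 over all 9153 rows tested. In the Set1 knockout 35 were positive and 52 negative, with a median of -0.16 and quartiles of -0.70 and 0.27, beside -0.06 over all rows tested. This lean was not particular to the 87. By WT level, gene_ rows at 500 to 1000 FPKM had medians of -0.12 in Swd3 and -0.02 in Set1. The medians were -0.32 in Swd3 and -0.27 in Set1 at 100 to 500 FPKM, and -0.35 and -0.37 at 20 to 100 FPKM. By the limma fit, 74 passed in Swd3 (27 higher and 47 lower at an adjusted p under 0.05), where 80.7% of all rows tested passed, 38.2% higher and 42.5% lower. In Set1 76 passed (29 higher and 47 lower), where 81.1% of all rows passed, 37.8% higher and 43.3% lower. The split followed the scaling. In Swd3 it was 21 higher and 57 lower under quantile normalization and 26 higher and 43 lower under median of ratios scaling. Of all rows, 78.1% and 81.2% passed under these scalings. In Set1 it was 21 higher and 55 lower under quantile normalization and 31 higher and 38 lower under median of ratios scaling, where 78.1% and 81.4% of all rows passed. Since WT libraries chose the transcripts and enter these comparisons, nothing is read from the counts, and both comparisons share those WT libraries.

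How far the choice depends on single WT libraries was described by leaving a WT library out of it. With the threshold applied to 2 WT libraries at a time, 84 to 88 transcripts were chosen. The library left out lay at a median log2 difference of -0.02 from the choosing libraries for WT replicate 1, 0.06 for replicate 2 and -0.05 for replicate 3. Over gene_ rows at 100 FPKM or more in the choosing libraries these medians were -0.0041, 0.0014 and -0.0032 for WT replicates 1, 2 and 3. The medians of the chosen transcripts also hold differences between WT libraries. Replicate 2 was the highest WT library for 64 of the 87, and replicate 3 the lowest for 56. The effect of the choice alone thus cannot be read from them.

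**Figure D3:**
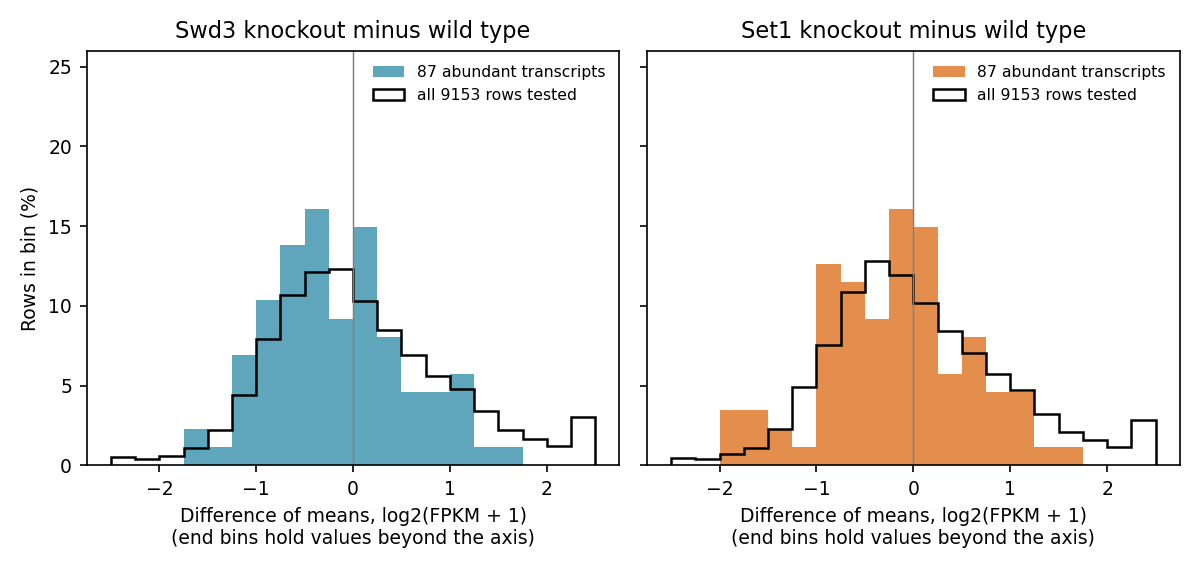
Histograms of the log2(FPKM + 1) difference from wild type in the Swd3 knockout (left) and the Set1 knockout (right), as a percentage of the 87 transcripts (filled) and of all 9153 rows tested (line), with values beyond the axis in the end bins. The 87 reach from -1.65 to 1.52 in Swd3 and from -1.99 to 1.50 in Set1, and extend less far than all rows on both sides. This is not particular to the 87. Gene_ rows at 500 to 1000 FPKM in the wild type also extend less far on both sides, and those at 100 to 500 FPKM on the upper side. Since wild-type libraries chose the transcripts, nothing is read from the range.

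Large differences from WT were a minority. By the ratio of mean FPKM, 7 of the 87 were at least 2-fold higher and 9 at least 2-fold lower in the Swd3 knockout, where 20.8% of all rows tested were 2-fold higher and 11% 2-fold lower. In the Set1 knockout 6 were at least 2-fold higher and 9 at least 2-fold lower, beside 19.9% and 11.9% of all rows. Of the 87 these are 8.05% higher and 10.3% lower in Swd3, and 6.9% higher and 10.3% lower in Set1. At 500 to 1000 FPKM in WT, 2.54% of gene_ rows were 2-fold higher in Swd3 and 4.24% in Set1, with 3.39% and 7.63% lower. At 100 to 500 FPKM the shares were 3.71% and 3.82% higher, with 13.3% and 14.6% lower. At the other extreme, 22 of the 87 (25.3%) in Swd3 and 27 (31.0%) in Set1 lay within 1.2-fold of WT. Over all gene_ rows tested the shares were 22.3% in Swd3 and 21.6% in Set1. At 500 to 1000 FPKM in WT they were 46.6% and 26.3%. Of the 22 transcripts at 2000 to 5000 FPKM in WT, 4 were at least 2-fold lower and 1 at least 2-fold higher in each knockout. Of the 55 at 1000 to 2000 FPKM, 5 were at least 2-fold lower in each knockout, while 6 in Swd3 and 5 in Set1 were at least 2-fold higher.

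The transcript with the highest difference in each knockout was gene_3073, which is also one of those just above the threshold. It had 2857, 3042 and 3082 FPKM in Swd3, 2831, 3162 and 2920 FPKM in Set1 and 1008, 1159 and 979 FPKM in WT libraries. The lowest knockout library was above 2-fold of the highest WT library, and the log2 difference from WT was 1.52 (SE 0.06) in Swd3 and 1.50 (SE 0.06) in Set1. The rank was 23 in Swd3 and 22 in Set1, against 86 in WT.

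Second in the Set1 knockout was gene_9218, with 2502, 2543 and 2393 FPKM in Swd3, 3000, 2927 and 2910 FPKM in Set1 and 1117, 1109 and 1104 FPKM in WT libraries. Neither knockout overlapped WT, and the ratio to WT was 2.23 in Swd3 and 2.65 in Set1. The knockouts did not overlap each other either, and the Swd3 minus Set1 difference of -0.25 (SE 0.04) passed (limma adjusted p = 4.64e-04). Second in the Swd3 knockout was gene_2617, with 4361, 4248 and 4038 FPKM in Swd3, 3216, 3052 and 3068 FPKM in Set1 and 1743, 1663 and 1721 FPKM in WT libraries. Here the order was reversed, with Swd3 highest and Set1 in between. Its Swd3 minus Set1 difference was 0.44 (SE 0.04, limma adjusted p = 8.81e-06).

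At the lower end, gene_7264 and gene_4714 had the lowest differences from WT in each knockout. Gene_7264 had 344, 357 and 359 FPKM in Swd3, 270, 287 and 279 FPKM in Set1 and 1096, 1166 and 1080 FPKM in WT libraries. Its log2 difference from WT was -1.65 (SE 0.04) in Swd3 and -1.99 (SE 0.04) in Set1. Gene_4714 had 365, 330 and 317 FPKM in Swd3, 281, 257 and 264 FPKM in Set1 and 1080, 1000 and 1109 FPKM in WT libraries. In both transcripts the Set1 libraries were the lowest, the Swd3 libraries came next, and no group overlapped another. The Swd3 minus Set1 difference was 0.34 (SE 0.04, limma adjusted p = 1.36e-04) for gene_7264 and 0.33 (SE 0.06, limma adjusted p = 0.0017) for gene_4714.

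The smallest sums of the absolute differences of both knockouts from WT, without further scaling, were those of gene_8652 and gene_2078. Gene_8652 had 2768, 2737 and 2575 FPKM in Swd3, 2703, 2686 and 2528 FPKM in Set1 and 2727, 2727 and 2681 FPKM in WT libraries, with all groups overlapping. Its log2 difference from WT was -0.01 in Swd3 and -0.04 in Set1 (SE 0.04), but -0.28 in Swd3 and -0.36 in Set1 under quantile normalization and 0.06 in Swd3 and 0.05 in Set1 under median of ratios scaling. Gene_2078 had 1729, 1740 and 1737 FPKM in Swd3, 1739, 1729 and 1751 FPKM in Set1 and 1796, 1777 and 1787 FPKM in WT libraries. Each knockout library was below each WT library at a log2 difference of -0.04 (SE 0.03) in each knockout, and the sign turned under median of ratios scaling (0.03 in Swd3 and 0.05 in Set1). Under quantile normalization it was -0.14 in Swd3 and -0.12 in Set1, so that the steadiness of both transcripts depends on the scaling.

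**Figure D4:**
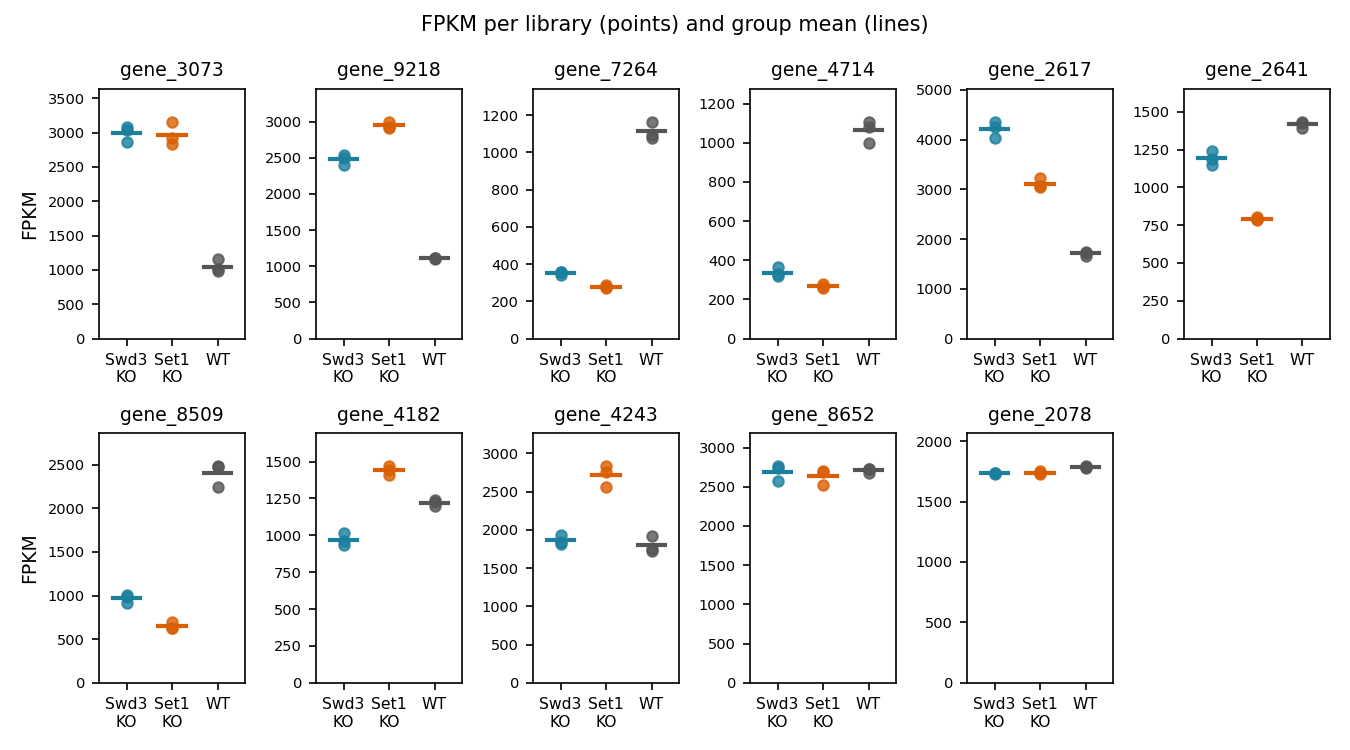
FPKM of 11 transcripts in each library of the Swd3 knockout (KO), the Set1 knockout and the wild type (WT), with points for libraries, lines for group means and an axis from 0. The panels show the transcripts with the highest and lowest differences in each comparison and both with the smallest differences from WT.

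The comparison of the knockouts with each other used only libraries that did not enter the threshold on WT. The members and tests were nonetheless chosen with earlier results of these data known. The comparison asked how the level of an abundant transcript differs between loss of Swd3 and loss of Set1. Of the 87, 35 passed in the limma fit, which is 40.2% of them beside 12.8% of all rows tested. In the Swd3 knockout 21 of these were higher and 14 lower. By direction, 6.66% of all rows were higher and 6.15% lower. In 44 of the 87, and in 28.3% of all rows tested, the Swd3 and Set1 libraries did not overlap. The number that passed was 22 (15 higher and 7 lower) after median of ratios scaling, which is 25.3% of the 87 beside 14.4% of all rows. The split was 25 higher and 11 lower with a common total and 30 higher and 12 lower under quantile normalization. The shares that passed were 41.4% beside 13.3% of all rows with a common total, and 48.3% beside 16.5% under quantile normalization.

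A high share that passed was a feature of abundant rows in general. Of the 118 gene_ rows at 500 to 1000 FPKM in WT, 54.2% passed between the knockouts. The share was 33.5% of the 917 rows at 100 to 500 FPKM, 15.3% at 20 to 100 FPKM and 7.78% at 5 to 20 FPKM. The median standard error was 0.05 log2 units among the 87 and 0.09 over all rows tested. Below 1000 FPKM in WT it rose as the share fell, from 0.045 at 500 to 1000 FPKM to 0.099 at 5 to 20 FPKM. The 87 did not follow this order. Their median standard error was near that of rows at 500 to 1000 FPKM (0.0450 against 0.0449), but a smaller share of them passed. Their median absolute log2 difference was 0.12, against 0.19 for those rows. The part of precision in the share was not tested.

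The differences between the knockouts stayed under 2-fold. The median absolute log2 difference was 0.12 over the 87 and 0.11 over all rows tested, and 0.28 among the 35 that passed. Of the 87, 63 (72.4%) were within 1.2-fold, beside 80.6% of all rows tested. The share was 62.7% of gene_ rows at 500 to 1000 FPKM in WT and 81.1% of those at 100 to 500 FPKM. A total of 24 (27.6%) passed at 1.2-fold or more, 17 higher and 7 lower in Swd3, beside 9.53% of all rows tested, 5.17% higher and 4.36% lower. Of gene_ rows at 500 to 1000 FPKM in WT, 35.6% did so, and of those at 100 to 500 FPKM, 18.6%. By 2-fold or more, 0 of the 87 differed, while 0.208% of all rows tested were 2-fold higher and 0.164% 2-fold lower in Swd3. The median difference was -0.02, beside 0.02 over all rows tested.

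**Figure D5:**
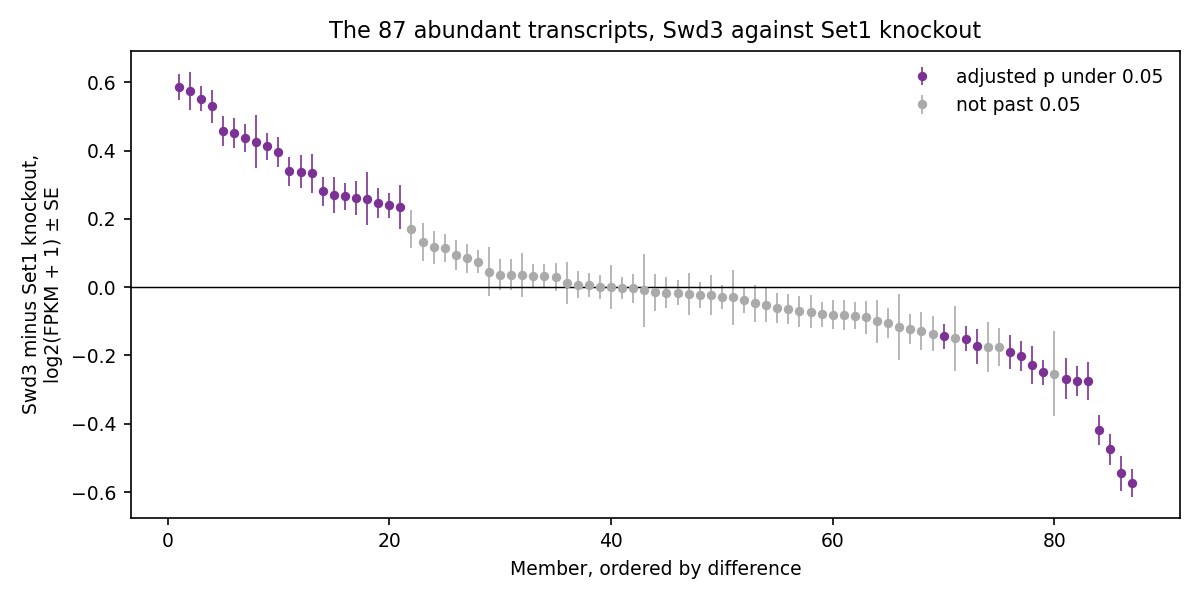
Difference of Swd3 from Set1 knockouts, in log2(FPKM + 1), with its standard error for the 87 transcripts, ordered from highest to lowest and coloured by whether the limma adjusted p was under 0.05. The differences run from 0.59 to -0.57, and 35 of the 87 passed.

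Gene_2641 and gene_8509 were the furthest above 0. Gene_2641 had 1239, 1187 and 1149 FPKM in Swd3 and 802, 784 and 793 FPKM in Set1 libraries, with 1435, 1394 and 1428 FPKM in WT libraries. The Swd3 libraries thus lay between those of Set1 and WT without overlap, at 1.50-fold of Set1, and the log2 difference was 0.59 (SE 0.04, limma adjusted p = 2.62e-07). Gene_8509 had 1003, 987 and 911 FPKM in Swd3 and 692, 625 and 631 FPKM in Set1 libraries, with 2476, 2239 and 2487 FPKM in WT libraries. Both knockouts were far below WT, at a ratio of 0.403 in Swd3 and 0.270 in Set1, and the Swd3 minus Set1 difference was 0.57 (SE 0.06, limma adjusted p = 1.18e-05).

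The transcripts furthest below 0 were gene_4182 and gene_4243. Gene_4182 had 1016, 933 and 959 FPKM in Swd3 and 1444, 1408 and 1472 FPKM in Set1 libraries, with 1200, 1238 and 1226 FPKM in WT libraries. WT lay between the knockouts, with no overlap of any groups, and the Swd3 minus Set1 difference was -0.57 (SE 0.04, limma adjusted p = 5.24e-07). Gene_4243 had 1929, 1838 and 1818 FPKM in Swd3 and 2561, 2837 and 2757 FPKM in Set1 libraries, with 1727, 1925 and 1749 FPKM in WT libraries. Swd3 and WT libraries overlapped, the Set1 libraries were above all of them, and the Swd3 minus Set1 difference was -0.54 (SE 0.05, limma adjusted p = 9.17e-06).

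The row with the next number, gene_4244, is also one of the 87 and was noticed after its values were seen. It averaged 1125 ± 72.0 FPKM in Swd3 and 1562 ± 30.8 FPKM in Set1, with 1262 ± 14.9 FPKM in WT (SD, n = 3 each). Its Swd3 minus Set1 difference was -0.47 (SE 0.05, limma adjusted p = 1.01e-05). Consecutive numbers occurred in 5 pairs among the 87, and the table does not say whether numbers follow the genome. In the other pairs, Swd3 minus Set1 differences were 0.04 and -0.08 for gene_1886 and gene_1887, and 0.43 and 0.24 for gene_4345 and gene_4346. They were -0.28 and -0.42 for gene_6576 and gene_6577, and 0.40 and 0.07 for gene_8532 and gene_8533. Of these, gene_1886, gene_1887 and gene_8533 did not pass. Whether rows with consecutive numbers go together was not tested.

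Among the 52 transcripts that did not pass, the widest difference was -0.25 (SE 0.12) for gene_5228, singled out after its values were seen. It had 2325, 3150 and 3514 FPKM in Swd3, 3121, 3850 and 3628 FPKM in Set1 and 3148, 3676 and 3077 FPKM in WT libraries. Its replicates spread most of the 87 in each knockout, with a coefficient of variation of 20.3% in Swd3 and 10.6% in Set1, and the groups overlapped (limma adjusted p = 0.229).

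The count of rows that reached the level of the 87 was a measure added after the data were seen. Rows at 1000 FPKM or more numbered 84, 80 and 81 in Swd3 libraries, 100, 101 and 102 in Set1 libraries and 88, 91 and 85 in WT libraries. The knockouts did not overlap, with 19.3 fewer rows in Swd3 (exact two-sided permutation test, p = 0.1, the smallest possible, adjusted p = 0.25 over 5 measures tested). By group means, 21 rows under 1000 FPKM in WT reached that level in Swd3 and 39 in Set1, of which 12 of those in Swd3 and 30 of those in Set1 were at 500 FPKM or more in WT. Members at that level numbered 60.0 ± 1.00 per Swd3 library and 61.3 ± 0.577 per Set1 library (exact two-sided permutation test, p = 0.3, adjusted p = 0.3).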

How the data were processed

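The authors deposited a table of FPKM values with 1 row per gene and 1 column per library. The tools were StringTie, HISAT2 and FastQC, per the submitters' processing notes. Versions, settings, build, annotation and strand use were not given in the sources used here. FPKM is relative to the library's total, so a gain of some abundant transcripts lowers the values of others. No counts were given, so there are no counting intervals.

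The 87 transcripts were taken by the threshold of 1000 FPKM on the WT mean. Rows entered the fit with at least 1 FPKM in at least 3 of 9 libraries. Values were taken as log2(FPKM + 1), without further scaling. All 9 libraries entered 1 linear model with group means in limma 3.58.1 (R 4.3.3, empirical Bayes with trend, tested on simulated data), with Benjamini-Hochberg adjustment over 9153 rows and a threshold of 0.05. Single values per library were compared by exact permutation tests.

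The members, lists and tests were chosen with earlier results of these data known. Named transcripts are the 5 highest in WT, the 2 highest and 2 lowest differences per comparison (between knockouts, among those that passed without overlap), the 2 with the smallest differences from WT, and the 2 on each side of the threshold. Others are marked as singled out. Replicate numbers were not taken as pairs, since 4 of 9 same-numbered pairs of libraries had deviations correlated above 0.1. Alternatives covered the pseudocount, filter, scaling, threshold, fit and each library left out.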

Additional observations from a re-analysis of the deposited data

Results flagged for a closer look

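In 4 of the 87 transcripts the effect of the knockouts was singled out because it differed between them by a direct test. They were chosen for a wide difference among those that passed, so the values restate the choice. In log2(FPKM + 1), Swd3 minus Set1 was 0.59 for gene_2641 and 0.57 for gene_8509. It was -0.57 for gene_4182 and -0.54 for gene_4243. Over the 15 alternatives of processing and left-out libraries, each of the 4 passed every time. The difference ranged from 0.56 to 0.79 for gene_2641 (limma adjusted p up to 1.26e-05), from 0.55 to 0.81 for gene_8509 (up to 4.30e-04), from -0.61 to -0.43 for gene_4182 (up to 4.80e-05) and from -0.59 to -0.48 for gene_4243 (up to 3.72e-04).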

How the results depend on the processing

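Of 159 alternatives for the counts, medians and shares, 136 kept the result, and of 578 for single genes and the count of rows at 1000 FPKM, 528 did. These tallies do not measure robustness, because some alternatives could not change the result. Leaving out the filter, fitting 2 groups alone, the replicate block and robust variance moderation leave the difference of a single gene as it was. A smaller pseudocount hardly moves rows this abundant. With 0.1 the Set1 minus WT median was -0.1644, against -0.1643. The cause of the changes below was not tested, except that a lower or higher threshold itself changes the number of members. Depth is unknown, so what it limits could not be stated. With members at 500 FPKM or more in WT (205 rows), 166 passed in Swd3 against WT (median -0.15), 175 in Set1 against WT (median -0.041) and 99 in Swd3 against Set1 (median -0.058). The share of summed FPKM then turned to -0.464 percentage points for Swd3 minus Set1 and was 1.01 for Set1 minus WT. With members at 2000 FPKM or more (32 rows), 25 passed in Swd3 against WT (median -0.0044), 28 in Set1 against WT (median -0.081) and 11 in Swd3 against Set1. Both thresholds use the same fit. There 80.7% of all rows passed in Swd3 against WT, 81.1% in Set1 against WT and 12.8% in Swd3 against Set1. Median of ratios scaling gave medians of -0.18 in Swd3 and -0.079 in Set1 against WT. It gave 22 calls between the knockouts, 25.3% beside 14.4% of all rows. Quantile normalization gave medians of -0.29 in Swd3 against WT, -0.32 in Set1 against WT and 0.083 in Swd3 against Set1. A common total gave 0.019 for Swd3 against Set1. Choosing members on WT replicates 2 and 3, or on 1 and 3, gave a Swd3 median against WT of -0.22.

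Leaving out each library in turn gave 71 to 75 calls for Swd3 against WT, 72 to 76 for Set1 against WT and 29 to 37 for Swd3 against Set1. For Swd3 against WT these are 81.6% to 86.2% of the 87, beside 77.4% to 80.4% of all rows. For Set1 against WT they are 82.8% to 87.4%, beside 77.6% to 80.1% of all rows. For Swd3 against Set1 they are 33.3% to 42.5%, beside 8.01% to 12.9% of all rows. The medians ranged from -0.26 to -0.22 for Swd3 minus WT, from -0.18 to -0.13 for Set1 minus WT and from -0.034 to 0.012 for Swd3 minus Set1. The share of summed FPKM ranged from 0.311 to 1.40 percentage points for Swd3 minus WT, from -0.865 (without Set1 replicate 2) to -0.0288 (without WT replicate 2) for Set1 minus WT, and from 0.819 to 1.91 for Swd3 minus Set1. The count of members at 1000 FPKM or more was 60 in Swd3 and 62 in Set1 each time.

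With the replicate number as a block, the calls were 76 for Swd3 against WT, 79 for Set1 against WT and 40 for Swd3 against Set1. As shares these are 87.4%, 90.8% and 46%, beside 82.1%, 82.2% and 15% of all rows. With that block gene_8241 passed between the knockouts (limma adjusted p = 0.0119). The labels tie the numbers to no shared batch, and correlations of same-numbered deviations ran from -0.132 to 0.295. Gene_2078 turned to 0.027 in Swd3 and 0.046 in Set1 against WT after median of ratios scaling. The Swd3 minus Set1 difference in the count of rows at 1000 FPKM was -15 with a common total. Both this measure and its alternatives were chosen after seeing the data.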
